A study of Mus musculus with 24 samples.

Results

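The comparison covers WT CD8+ T cells against WT CD4+ T cells recovered from recipients on day 7 post-tx. Its members were chosen by label only, as the WT CD8 and WT CD4 post-transplant libraries, and are 6 of the 24 libraries of the series, 3 of each cell type. The donors were C57BL/6 WT mice, and no transgene was present in either group. Donor CD4+ and CD8+ cells were purified on magnetic beads, mixed in equal numbers and given with T cell-depleted WT bone marrow to lethally irradiated BALB/c mice, which are mismatched for MHC. Each recipient spleen gave a CD4+ and a CD8+ sort, gated on the donor MHC molecule H-2Kb, and the replicate number was taken as the recipient mouse, although the labels do not say that equal numbers are the same mouse. The 6 libraries of Cat-Tg donors from the same day, whose T cells carry an N-terminally truncated human β-catenin, entered only the 12-library fits. There they served to estimate the spread and to test whether the cell type difference was unlike that of WT. They also took part in the scaling, the gene filter and the adjustment of p. The WT fold changes and the genes tested therefore differ from those of the 6-library fit. In the labels the library codes of the Cat-Tg and the WT samples begin with different letters. What the letters stand for is not given, and anything that went with them cannot be told apart from genotype. Pre-tx libraries were not used.

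CD8+ T cells recognise peptides on MHC class I and kill target cells with perforin and granzymes, while CD4+ T cells recognise MHC class II and act mainly through cytokines and CD40 ligand. The transcription factor ThPOK, encoded by *Zbtb7b*, holds the CD4 lineage and RUNX3 holds the CD8 lineage. In allogeneic transplantation both cell types respond to host antigens, divide in the spleen and lymph nodes in the first days, and take part in GVHD.

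Total estimated counts were between 18184813 and 32657005 in the CD8+ libraries and between 27109156 and 49486745 in the CD4+ libraries. Values below are CPM (counts scaled to library size) after TMM normalisation, on which scale 3 counts corresponded to 0.117 to 0.181 CPM in CD8+ and to 0.0498 to 0.0752 CPM in CD4+ libraries. The 10 most abundant genes took 13.4% to 16.2% of the counts in CD8+ libraries and 6.86% to 7% in CD4+ libraries, and mitochondrial genes took 1.08% to 4.6% and 0.783% to 2.29%. The CD8+ libraries were less alike than the CD4+ ones. Across 13278 genes, log2(CPM + 1) correlated with Pearson's r of 0.781, 0.895 and 0.902 between CD8+ libraries and 0.955 to 0.968 between CD4+ libraries, a description across genes, which are not independent replicates. The median SD of a gene over 3 libraries was 0.728 in CD8+ and 0.342 in CD4+ on that log2 scale.

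The departures of the CD8+ libraries from their mean followed GC content. Over the 13271 genes with a GC value, the deviation of a library from its group mean had a Spearman correlation with GC content of -0.632 in CD8+ replicate 1, 0.572 in CD8+ replicate 2 and 0.124 in CD8+ replicate 3. In CD4+ the same correlations were 0.468, -0.365 and -0.072. In the bin of highest GC content, with a median of 60.2%, the median deviation was -1.17 in CD8+ replicate 1 and 0.96 in CD8+ replicate 2 on the log2 scale. CD8+ replicates 1 and 2 therefore stood apart in opposite directions. For some genes and lists, not all, a GC-corrected fit is given beside the uncorrected one.

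**Figure D1:**
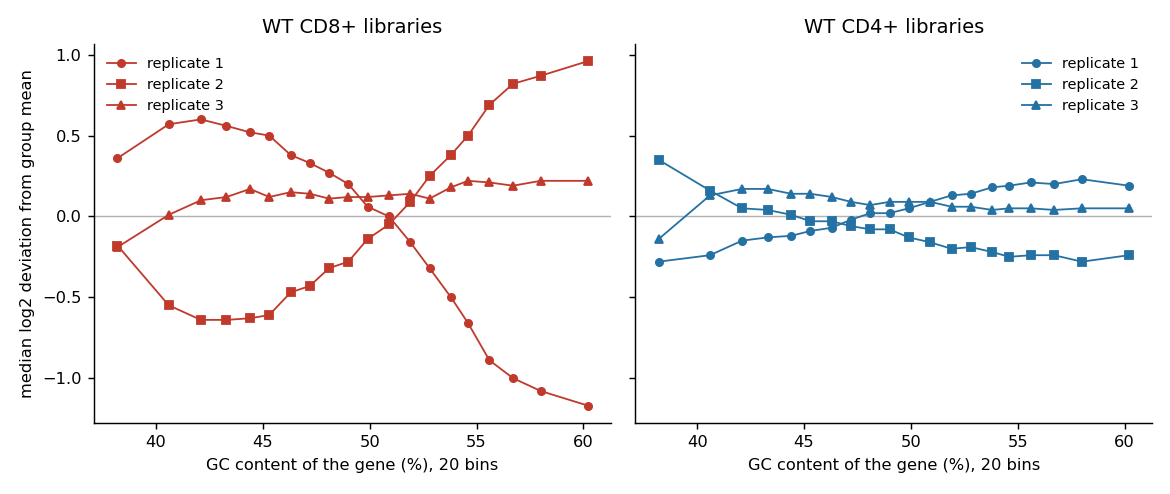
Median log2 deviation of each library from the mean of its group (y axis) against the median GC content of the genes in percent (x axis, 20 bins of equal gene number), for the 3 WT CD8+ libraries (left) and the 3 WT CD4+ libraries (right). CD8+ replicate 1 ends at -1.17 and CD8+ replicate 2 at 0.96 in the last bin, while the CD4+ libraries stay between -0.28 and 0.35.

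The largest differences toward CD8+ included the CD8 chains and 5 histone genes, and those toward CD4+ included *Cd4*, *Cd40lg* and *Chil3*. Granzyme genes were also higher in CD8+, and some cytokine genes and most macrophage and neutrophil markers were higher in CD4+, by the call defined below. With the 6 libraries fitted in edgeR with the mouse as a block, 0 of 13278 genes had an adjusted p of at most 0.05. The smallest adjusted p was 0.0656, and 2512 genes had an unadjusted p under 0.05. Called genes numbered 6 with limma-voom, 1912 with DESeq2 and 869 (6.54%) in edgeR with no replicate block, of which 370 were higher in CD8+ (2.79%) and 499 higher in CD4+ (3.76%). With a GC correction and the block kept, an alternative chosen after seeing the data, edgeR called 1517 of the same genes (11.4%), of which 764 were higher in CD8+ (5.75%) and 753 higher in CD4+ (5.67%). With all 12 post-tx libraries and a block for each mouse, edgeR called 1185 of 14361 genes (8.25%), of which 346 were higher in CD8+ (2.41%) and 839 higher in CD4+ (5.84%).

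Log2 fold changes are CD8+ over CD4+ and, with their SE, from the 6-library fit, and adjusted p are edgeR's in the 12-library fit unless another is named. In what follows a gene is called where its adjusted p in the 12-library fit was at most 0.05, with none of them passing in the 6 WT libraries alone unless the GC correction is named. The 12-library and the GC-corrected calls shared 865 genes, 73% of the former and 57% of the latter, and all 865 had the same sign. The GC-corrected fit is that of the 6 WT libraries wherever it is named, so it differs from the 12-library fit in its libraries as well as in the correction. The share of calls higher in CD8+ was 29.2% in the 12-library fit and 50.4% in the GC-corrected fit of 6. The correction takes out each library's median deviation from the mean of the 6 libraries in every GC bin. This also brings the median log2 fold change of all genes to -0.02, so the shares do not compare like with like. Without the WT pair of replicate 1, 2 or 3, the 12-library calls numbered 2247, 757 and 107. Of these, 1106, 254 and 9 were higher in CD8+ and 1141, 503 and 98 higher in CD4+. TMM put the median log2 fold change of all genes at -0.20 in the 6-library fit and at -0.38 in the 12-library fit. List medians are read against the first of these values, while every test and call was against 0. The 3 values of each group did not overlap in 4236 genes (31.9%), with CD8+ higher in 1374 (10.3%) and CD4+ higher in 2862 (21.6%). Counts of list members below stand beside these shares and the called shares of all genes, 2.41% higher in CD8+ and 5.84% higher in CD4+. Where the GC-corrected fit is named the called shares are 5.75% and 5.67%. List counts with a pair left out stand beside the totals of that leave-out fit, and rise and fall in part with them. A list near these shares or totals says nothing particular about its members.

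The coreceptors followed the sort. *Cd8a*, which encodes the alpha chain of CD8, was at 338, 654 and 535 CPM in CD8+ replicates 1, 2 and 3 and at 3.8, 4.73 and 0.873 CPM in CD4+ replicates 1, 2 and 3. *Cd8b1*, its beta chain, was at 1080, 1570 and 1360 CPM in CD8+ and at 13, 23.9 and 16.7 CPM in CD4+. *Cd4* was at 3.57, 3.94 and 1.01 CPM in CD8+ and at 933, 741 and 974 CPM in CD4+. No library of either sort overlapped the other for these genes, which check the labels and are not a finding. *Cd8a* made up 99% to 99.8% of the *Cd8a* and *Cd4* CPM in CD8+ libraries and 0.0895% to 0.635% in CD4+ libraries. The log2 fold changes were 7.56 (SE 0.90) for *Cd8a*, 6.26 (SE 0.65) for *Cd8b1* and -8.46 (SE 0.87) for *Cd4*. Their adjusted p was 0.0656 in the 6-library fit and 0.00152, 0.000864 and 0.000869 in the 12-library fit.

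Of 19 coreceptor and lineage genes tested, 2 were called higher in CD8+ and 5 higher in CD4+, and the median of their log2 fold changes was -1.18. *Gata3*, a helper-lineage transcription factor, was at 24.2, 34 and 26.4 CPM in CD8+ and at 292, 234 and 286 CPM in CD4+, which gave -3.27 on the log2 scale (SE 0.59, adjusted p 0.00261). *Tcf7*, which encodes TCF-1, was at 7.56, 19.1 and 21.8 CPM in CD8+ and at 119, 116 and 133 CPM in CD4+, which gave -3.05 on the log2 scale (SE 0.62, adjusted p 0.00518). Both were lower in each CD8+ library than in any CD4+ library. *Satb1* and *Ets1* were the other members called lower in CD8+, at log2 fold changes of -2.38 and -2.22. *Zbtb7b*, by contrast, was at 5.32, 34.3 and 24.6 CPM in CD8+ and at 44.8, 33.8 and 39.8 CPM in CD4+. These ranges overlapped through CD8+ replicate 2, and the log2 fold change of -1.19 (SE 0.76) had an adjusted p of 0.436 in the 6-library fit, 0.24 in the 12-library fit and 0.027 with the GC correction. *Runx3* was at 49.3, 171 and 52.1 CPM in CD8+ and at 135, 88.5 and 102 CPM in CD4+, with an adjusted p of 0.45 in the 12-library fit. This list had 2 higher and 3 lower without the WT pair of replicate 3.

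**Figure D2:**
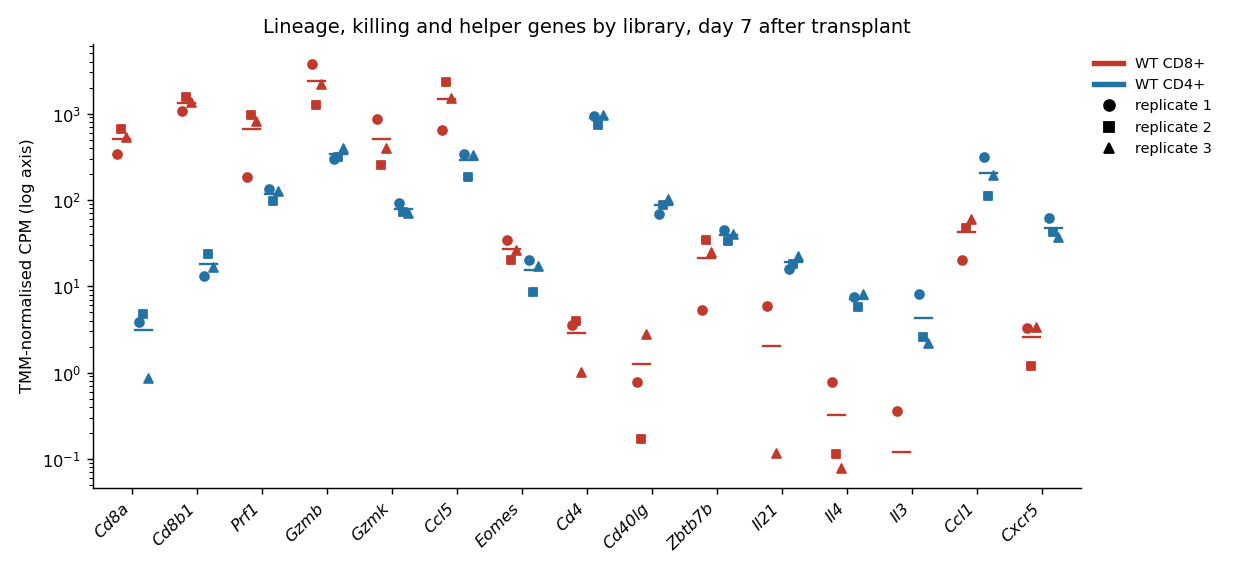
TMM-normalised CPM on a log axis (y axis) of 15 genes (x axis) in the 3 WT CD8+ (red) and 3 WT CD4+ (blue) libraries, with symbols for the replicate number and a bar for the group mean. Libraries at 0 CPM (*Il21* in CD8+ replicate 2, *Il3* in CD8+ replicates 2 and 3) are not drawn. *Cd8a* sits at 338 to 654 against 0.873 to 4.73, *Cd4* at 1.01 to 3.94 against 741 to 974, and *Zbtb7b* and *Eomes* touch or overlap.

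Markers of other cells differed between the sorts, and this touches the CD4-higher genes below. Of 17 macrophage and monocyte markers, 0 were called higher in CD8+ and 15 were called higher in CD4+. Their summed level was 128 to 318 CPM in CD8+ and 1420 to 2460 CPM in CD4+ libraries, and only *Fcgr1*, an Fc receptor, was at or under 3 counts in every CD8+ library. *Vcam1*, an adhesion molecule of splenic macrophages, was at 5.56, 4.62 and 15.8 CPM in CD8+ and at 150, 237 and 360 CPM in CD4+. The iron exporter gene *Slc40a1* was at 5.5, 2.87 and 5.5 CPM in CD8+ and at 149, 219 and 310 CPM in CD4+. Neutrophil markers had the same direction, with 8 of 11 called higher in CD4+ and sums of 69.1 to 126 CPM in CD8+ and 610 to 1610 CPM in CD4+. B cell markers summed to 571 to 1040 CPM in CD8+ and 1300 to 1650 CPM in CD4+, with *Cd74*, *H2-Aa* and *Cd22* called higher in CD4+ and *Cd79b*, part of the B cell receptor complex, called higher in CD8+ at 24.7, 45 and 23.2 CPM against 6.03, 2.88 and 4.76 CPM. In bulk RNA, fewer cells of a type and less RNA per cell cannot be told apart, and the part of these cells in other differences was not tested. T cell markers summed to 13800 to 17000 CPM in CD8+ and 5920 to 8950 CPM in CD4+, with no marker under 3 counts in either sort, and 1 of 12, *Trbc2*, was called. NK cell markers, which CD8+ effector cells share in part, summed to 9030 to 11600 CPM in CD8+ and 1810 to 2730 CPM in CD4+, led by *Nkg7*, and 1 of 8, *Gzma*, was called.

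Of the remaining marker lists, dendritic cell genes summed to 99.9 to 232 CPM in CD8+ and 84.7 to 104 CPM in CD4+, and plasma cell genes to 60.5 to 139 and 129 to 142 CPM. Red cell genes summed to 231 to 1890 CPM in CD8+, highest in replicate 2, and 605 to 1010 CPM in CD4+. Platelet genes stayed at or under 5.59 CPM in all 6 libraries. Stromal and endothelial genes summed to 36.1 to 45.8 CPM in CD8+ and 83.1 to 95.6 CPM in CD4+. None of these 5 lists had a member called by edgeR in the 12-library fit, and the GC-corrected fit called only *Itgax*, a dendritic cell gene that T cells can also express. Genes of γδ and innate-like T cells summed to 35.7 to 90.2 and 59 to 76.1 CPM, with *Tcrg-C4* called higher in CD4+ at 0.0605 to 0.351 against 2.82 to 3.66 CPM. Genes of naive and resting T cells summed to 283 to 398 CPM in CD8+ and 690 to 896 CPM in CD4+, and 1 of 10, *Tcf7*, was called.

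**Figure D3:**
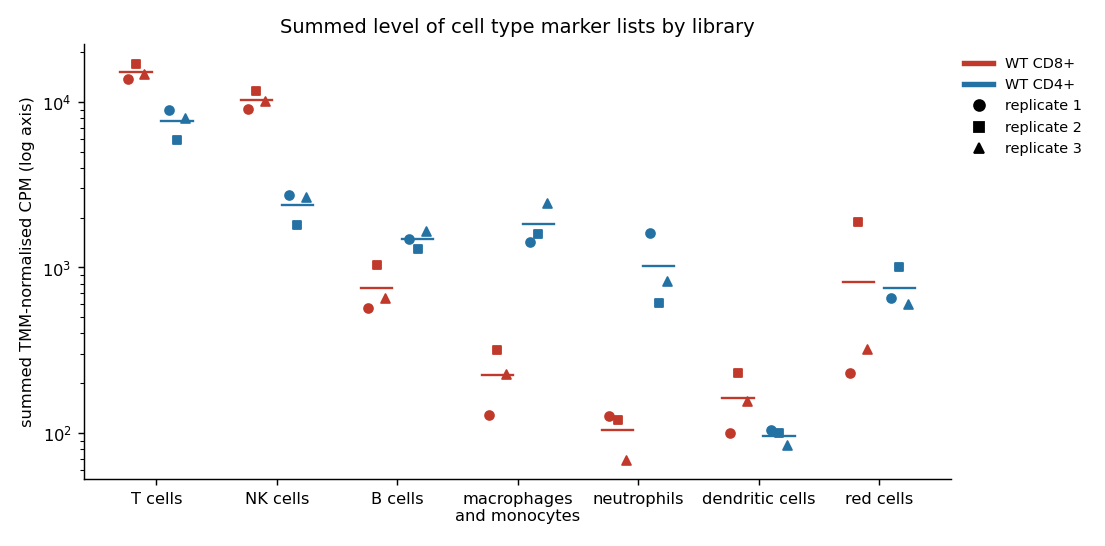
Summed TMM-normalised CPM on a log axis (y axis) of marker gene lists of 7 cell types (x axis) in each library, in red for WT CD8+ and blue for WT CD4+, with bars for group means. Macrophage and neutrophil sums lie between 69.1 and 318 in CD8+ and between 610 and 2460 in CD4+, and T cell and NK cell sums are higher in every CD8+ library than in any CD4+ library.

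Histone genes were the most numerous family among the largest differences toward CD8+. Of the 12 highest log2 fold changes by the naming rule, 5 were replication-dependent histone genes (*Hist1h3g*, *Hist1h3i*, *Hist1h2ae*, *Hist1h1b*, *Hist1h4d*), so the family was examined after its values had been seen, and its counts support nothing by themselves. These genes encode the histones packed onto new DNA in S phase. Most of their transcripts end in a stem-loop in place of a poly(A) tail, and the cDNA kit used here primes on poly(A). Promoters of 3 of them are shown because the members moved together. They are from RefSeq (GRCm38.p6), 300 bases 5′ to 3′ on the gene's own strand, with 50 bases after the start, and the capitals mark CCAAT and TATAAA on either strand (ATTGG and TTTATA on the opposite strand). The windows are chr13:21780576-21780875 (minus) for *Hist1h1b*, chr13:23571171-23571470 (minus) for *Hist1h2ae* and chr13:23581318-23581617 (plus) for *Hist1h4d*.
Hist1h1b: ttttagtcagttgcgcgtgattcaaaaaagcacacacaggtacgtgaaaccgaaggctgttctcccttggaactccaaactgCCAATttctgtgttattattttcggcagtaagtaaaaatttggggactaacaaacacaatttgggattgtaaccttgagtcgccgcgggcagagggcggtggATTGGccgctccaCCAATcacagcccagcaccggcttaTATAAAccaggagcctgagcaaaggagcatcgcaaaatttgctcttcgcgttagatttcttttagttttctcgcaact
Hist1h2ae: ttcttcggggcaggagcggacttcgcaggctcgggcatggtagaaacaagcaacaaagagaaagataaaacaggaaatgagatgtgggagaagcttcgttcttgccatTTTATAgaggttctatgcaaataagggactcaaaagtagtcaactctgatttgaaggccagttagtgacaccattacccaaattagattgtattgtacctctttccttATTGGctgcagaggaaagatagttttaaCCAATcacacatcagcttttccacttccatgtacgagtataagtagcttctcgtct
Hist1h4d: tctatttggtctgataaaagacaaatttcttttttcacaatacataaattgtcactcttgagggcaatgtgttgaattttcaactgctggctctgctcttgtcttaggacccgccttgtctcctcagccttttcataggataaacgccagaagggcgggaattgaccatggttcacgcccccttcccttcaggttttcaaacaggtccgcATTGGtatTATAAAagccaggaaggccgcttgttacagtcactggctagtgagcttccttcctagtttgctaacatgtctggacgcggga
CCAAT was in 20 of 23 promoters (87%) of the called histone genes with an entry, in 44 of 53 (83%) of the histone genes with one, and in 37.9% of 27025 gene promoters of that length. TATAAA was in 65.2% of the called and 58.5% of all histone promoters, and in 14.2% of that set. Matches on either strand were counted, and the only TATAAA match of *Hist1h2ae* was on the opposite strand. These are matches of letters and not sites.

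*Hist1h1b*, a linker histone H1 gene, was at 90.4, 122 and 95.4 CPM in CD8+ and at 8.82, 4.13 and 8.39 CPM in CD4+. *Hist1h4d*, a histone H4 gene, was at 262, 194 and 124 CPM in CD8+ and at 16.1, 11.3 and 11.4 CPM in CD4+. *Hist1h2ap*, a histone H2A gene, was at 4590, 20500 and 11000 CPM in CD8+ and at 1170, 660 and 919 CPM in CD4+. Every CD8+ library exceeded every CD4+ library for these genes, although CD8+ replicate 2 held more than 4 times as much *Hist1h2ap* as replicate 1. Log2 fold changes were 3.90 (SE 0.64), 3.85 (SE 0.59) and 3.51 (SE 0.79), with adjusted p in the 12-library fit of 0.0124, 0.00802 and 0.0192 and in the GC-corrected fit of 0.00958, 0.00787 and 0.0117. Of 58 histone genes tested, 24 were called higher in CD8+ and 0 higher in CD4+, and 50 of the 57 tested in the 6-library fit had CD8+ above CD4+ in all libraries. Over all genes tested, 2.41% were called higher in CD8+ and 10.3% had CD8+ above CD4+ in all libraries. The family median was 2.92 with pair medians of 2.72, 3.71 and 2.45. Without the WT pair of replicate 1 the called number was 20, without replicate 2 it was 9 and without replicate 3 it was 0. Near-identical copies share reads, so the value of a single histone gene is uncertain.

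Perforin and 4 granzyme genes were higher in CD8+. Of 21 cytotoxic granule and killing genes tested, of 25 listed, 5 were called higher in CD8+ and 0 higher in CD4+, and with the GC correction 10 were higher and 0 lower. The median log2 fold change was 1.14, with pair medians of 0.8, 1.62 and 1.3. *Gzmb*, which encodes granzyme B, was at 3730, 1240 and 2210 CPM in CD8+ and at 299, 311 and 401 CPM in CD4+. *Gzma*, granzyme A, was at 6050, 447 and 2140 CPM in CD8+ and at 107, 176 and 248 CPM in CD4+. *Gzmk* was at 869, 256 and 398 CPM in CD8+ and at 93.1, 71.5 and 70.3 CPM in CD4+. All 3 granzymes were highest in CD8+ replicate 1 and lowest in CD8+ replicate 2 among the CD8+ libraries, and all CD8+ values were above all CD4+ values. Their log2 fold changes were 2.69 (SE 0.62, adjusted p 0.0144), 3.36 (SE 0.99, adjusted p 0.0371) and 2.52 (SE 0.59, adjusted p 0.0141). *Prf1*, the pore-forming protein perforin, was at 184, 971 and 817 CPM in CD8+ and at 132, 96.6 and 126 CPM in CD4+, which gave 2.21 on the log2 scale (SE 0.75, adjusted p 0.0424), here with CD8+ replicate 1 lowest. *Gzmm* was the other member called, at 46.7, 129 and 83 CPM against 15.9, 11.8 and 11.9 CPM.

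*Nkg7*, a granule membrane gene of killer cells, was at 2590, 11100 and 7860 CPM in CD8+ and at 2530, 1540 and 2290 CPM in CD4+, where the lowest CD8+ library lay just above the highest CD4+ one. It did not pass (adjusted p 0.112 in the 12-library fit). *Fasl*, the death ligand, was at 243, 32.6 and 119 CPM in CD8+ and at 66.6, 52.2 and 77.5 CPM in CD4+, with overlapping groups and an adjusted p of 0.7, or 0.0428 with the GC correction. *Gzmf* was at 3.81, 2.14 and 7.92 CPM in CD8+ and at 0.498, 0.0251 and 0 CPM in CD4+, with an adjusted p of 0.056 in the 12-library fit and 0.0434 with the GC correction. Granzyme genes on the same chromosome cluster are close in sequence and could share reads. The 5 killing genes called became 9 higher and 1 lower without the WT pair of replicate 1, 4 and 0 without replicate 2, and 0 without replicate 3.

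NK cell receptors had a median log2 fold change of 0.89 over 19 genes tested of 31 listed, with pair medians of 1.89, -0.47 and 1.52. *Klra7*, an MHC class I receptor gene, was called higher in CD8+ at 8.95, 0.45 and 2.65 CPM against 0.0498, 0.0251 and 0.208 CPM, and was tested only in the 12-library fit. *Tyrobp*, the adaptor DAP12 of myeloid and NK cells, was called higher in CD4+, at 17.5, 9.96 and 10.6 CPM in CD8+ and 73, 59.3 and 109 CPM in CD4+. *Klrd1*, which encodes the CD94 receptor chain, was at 622, 120 and 357 CPM in CD8+ and 17.3, 58.3 and 83.4 CPM in CD4+. It did not pass in the 12-library fit (adjusted p 0.074) and passed with the GC correction (adjusted p 0.0373). *Klrk1*, the gene of the activating receptor NKG2D, was at 311, 13.9 and 121 CPM in CD8+ against 18.5, 31.8 and 29.4 CPM, so that CD8+ replicate 2 fell below all CD4+ libraries. Genes of the Klra and Klrc families are near copies of each other. The GC-corrected fit called 5 members higher and 2 lower, as against 1 and 1. In the 12-library fit the counts were 3 and 1 without the WT pair of replicate 1, 6 and 2 without replicate 2, and 0 and 0 without replicate 3.

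**Figure D4:**
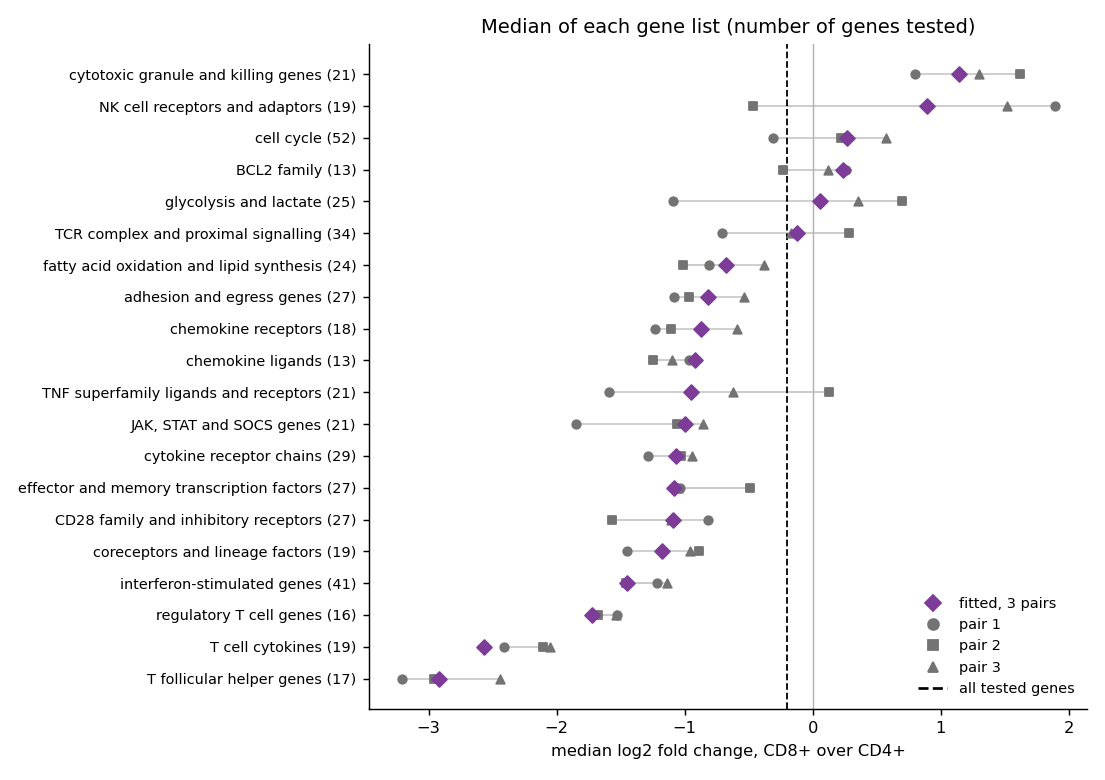
Median log2 fold change of CD8+ over CD4+ (x axis) for 20 gene lists (y axis, number of genes tested in brackets), as fitted over the 3 pairs (diamonds) and in each pair of libraries (grey symbols). The dashed line at -0.20 is the median of all tested genes. Killing genes lie at 1.14 and follicular helper genes at -2.92, and the pairs of the NK receptor list span -0.47 to 1.89.

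Among effector and memory transcription factors, 0 of 28 tested were called higher in CD8+ and 5 were called higher in CD4+. *Eomes*, a T-box factor of cytotoxic and memory cells, was at 34.5, 20.2 and 26.6 CPM in CD8+ and at 20.2, 8.64 and 17.2 CPM in CD4+. The groups met at 20.2 CPM, and the log2 fold change of 0.87 (SE 0.54) had an adjusted p of 0.42 in the 6-library fit and 0.349 in the 12-library fit. *Tbx21*, which encodes T-bet, was at 149, 799 and 404 CPM in CD8+ and at 323, 216 and 290 CPM in CD4+, with an adjusted p of 0.806 in the 12-library fit. *Bcl6*, the follicular helper repressor, was at 1.45, 1.01 and 3.98 CPM in CD8+ and at 22.2, 10.5 and 10.9 CPM in CD4+ (log2 fold change -2.92, adjusted p 0.0374). *Maf*, *Bhlhe40*, *Irf4* and *Klf3* were the others called, at log2 fold changes of -2.67, -2.07, -2.82 and -1.62. *Irf4* overlapped between the groups, at 17.6, 0.901 and 2.61 CPM against 28.6, 17 and 28.3 CPM. Without the WT pair of replicate 3 none of these 5 was called.

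CD40 ligand and 6 cytokine genes were higher in CD4+. *Cd40lg*, the ligand by which helper cells act on B cells and macrophages, was at 0.786, 0.169 and 2.77 CPM in CD8+ and at 68.8, 88.3 and 103 CPM in CD4+. Its groups were far apart, with a log2 fold change of -6.66 (SE 0.94) and an adjusted p of 0.0656 in the 6-library and 0.00261 in the 12-library fit. Of 21 T cell cytokine genes tested in the 12-library fit, of 30 listed, 0 were called higher in CD8+ and 6 were called higher in CD4+ (*Il3*, *Il4*, *Ebi3*, *Csf1*, *Csf2*, *Il27*). The median of the 19 tested in the 6 libraries was -2.57, with pair medians of -2.41, -2.11 and -2.05. *Il4*, the type 2 helper cytokine, was at 0.786, 0.113 and 0.078 CPM in CD8+ and at 7.54, 5.79 and 8.14 CPM in CD4+ (log2 fold change -5.02, SE 0.99, adjusted p 0.0153). *Csf1*, a macrophage growth factor, was at 10.2, 11.1 and 10.7 CPM in CD8+ and at 108, 85.3 and 107 CPM in CD4+ (log2 fold change -3.23, SE 0.56, adjusted p 0.00261). *Csf2*, which encodes GM-CSF, was at 7.92, 9.85 and 10.2 CPM in CD8+ and at 74.9, 21.6 and 42.2 CPM in CD4+ (adjusted p 0.0347). *Ebi3* and *Il27*, which encode the chains of interleukin 27, a cytokine also made by myeloid cells, were called as well, *Il27* from values of at most 1.08 CPM.

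The growth factor gene *Il2* was at 0.363, 0 and 0.195 CPM in CD8+ and at 7.44, 3.48 and 2.31 CPM in CD4+, and *Il21* at 5.92, 0 and 0.117 CPM and at 15.8, 18.3 and 22.5 CPM. Neither passed in the 12-library fit (adjusted p 0.0529 and 0.0612), and both passed with the GC correction (adjusted p 0.0277 and 0.0465). *Ifng*, the main cytokine of type 1 responses, was at 53.3, 20.1 and 27.8 CPM in CD8+ and at 70, 50.8 and 67 CPM in CD4+. The groups overlapped through CD8+ replicate 1, and its adjusted p was 0.176. *Tnf* was at 1.87, 0.619 and 4.96 CPM against 14.9, 9.12 and 9.06 CPM (adjusted p 0.0716). *Il17a* was at 0 in every CD8+ library and was not among the genes called. Of 22 TNF superfamily genes, 1 was called higher in CD8+ and 3 higher in CD4+. *Tnfrsf9*, the costimulatory receptor 4-1BB, was the one higher in CD8+, at 633, 461 and 377 CPM against 149, 76.3 and 96 CPM (log2 fold change 2.22, SE 0.55, adjusted p 0.0126). *Tnfsf8*, CD30 ligand, was at 9.25, 1.63 and 6.13 CPM against 66.8, 67 and 83.2 CPM, and *Tnfsf11*, RANK ligand, at 0.0605, 1.97 and 0.351 CPM against 12.1, 16.3 and 14.1 CPM. Without the WT pair of replicate 3 the cytokine calls fell from 6 to 2 and those of the TNF superfamily to 0 higher and 1 lower.

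Genes of follicular helper cells, the CD4+ cells that help B cells in germinal centres, had the lowest median of the 20 lists at -2.92. Of 17 tested, 0 were called higher in CD8+ and 8 were called higher in CD4+, and 10 with the GC correction. *Cxcr5*, the B cell follicle homing receptor, was at 3.26, 1.18 and 3.39 CPM in CD8+ and at 61.2, 42.7 and 37.6 CPM in CD4+ (log2 fold change -4.27, SE 0.67, adjusted p 0.00474). *Icos*, the inducible costimulator, was at 82, 46.1 and 100 CPM in CD8+ and at 206, 359 and 396 CPM in CD4+ (log2 fold change -2.09, SE 0.60, adjusted p 0.0362). *Sostdc1*, a secreted inhibitor of BMP and Wnt signals, was at 1.33, 0 and 1.44 CPM in CD8+ and at 47.2, 36.8 and 39.3 CPM in CD4+ (log2 fold change -5.98, SE 1.16, adjusted p 0.0165). All CD4+ libraries were above all CD8+ libraries for these genes. *Pdcd1*, which encodes PD-1 and belongs to this list, was on the other side at 772, 1840 and 1380 CPM in CD8+ and 627, 418 and 560 CPM in CD4+, without passing (adjusted p 0.127). Calls numbered 9 lower and 1 higher without the WT pair of replicate 1, 8 and 0 without replicate 2, and 1 and 0 without replicate 3.

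Of 17 regulatory T cell genes, 6 were called higher in CD4+ (*Ecm1*, *Swap70*, *Izumo1r*, *Ikzf2*, *Il2ra*, *Nrp1*) and 1, the actin-capping gene *Capg*, higher in CD8+. *Capg* was not among the calls of the GC-corrected fit, which had 0 higher and 5 lower, and without the WT pair of replicate 3 the 12-library calls were 0 higher and 1 lower. *Foxp3*, the factor that defines the lineage, was at 1.15, 41.2 and 9.44 CPM in CD8+ and at 15, 17.8 and 9.76 CPM in CD4+. The groups overlapped, with CD8+ replicate 2 highest and CD8+ replicate 1 lowest of all 6, and the adjusted p was 0.631. *Il2ra*, the alpha chain of the interleukin 2 receptor, was at 38.6, 10.1 and 19.7 CPM in CD8+ and at 102, 73.9 and 91.1 CPM in CD4+ (log2 fold change -2.16, SE 0.59, adjusted p 0.0292). Among 30 cytokine receptor chains, 0 were called higher in CD8+ and 6 were called higher in CD4+ (*Il12rb2*, *Csf2rb*, *Il6ra*, *Il2ra*, *Tgfbr2*, *Il2rg*). *Il12rb2*, a chain of the interleukin 12 receptor, was at 17, 0.619 and 9.29 CPM in CD8+ and at 87.2, 109 and 91.7 CPM in CD4+. *Il2rb*, the shared beta chain for interleukins 2 and 15, was at 386, 2970 and 1820 CPM in CD8+ and at 1520, 1040 and 1320 CPM in CD4+, which overlapped (adjusted p 0.951). The receptor chains called numbered 8 lower and 1 higher without the WT pair of replicate 1, 4 lower without replicate 2 and 0 without replicate 3.

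Of 27 CD28 family and inhibitory receptor genes, 0 were called higher in CD8+ and 5 were called higher in CD4+ (*Nt5e*, *Cd274*, *Cd28*, *Pdcd1lg2*, *Icos*), or 3 with the GC correction. *Cd28*, the costimulatory receptor, was at 66.1, 20.2 and 54 CPM in CD8+ and at 159, 202 and 214 CPM in CD4+ (log2 fold change -2.18, SE 0.65, adjusted p 0.034). Of the inhibitory receptors, *Lag3* was at 61.2, 474 and 231 CPM in CD8+ and 80, 57 and 66.4 CPM in CD4+, and *Ctla4* at 59.5, 12.5 and 61.5 CPM and 54.4, 66.7 and 77.7 CPM. Both overlapped and neither passed (adjusted p 0.2 and 0.387). The calls of this list were 7 lower and 2 higher without the WT pair of replicate 1, 1 and 0 without replicate 2, and 0 without replicate 3.

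Chemokine ligands split between the sorts. Of 19 tested in the 12-library fit, 2 were called higher in CD8+ and 3 higher in CD4+. *Ccl5*, which attracts T cells and monocytes, was at 648, 2300 and 1520 CPM in CD8+ and at 340, 186 and 335 CPM in CD4+ (log2 fold change 2.24, SE 0.71, adjusted p 0.0332). *Ccl1*, the ligand of CCR8, was at 20, 47 and 59.7 CPM in CD8+ and at 313, 112 and 194 CPM in CD4+. The groups did not overlap, and its log2 fold change of -2.26 (SE 0.73) had an adjusted p of 0.168 in the 6-library fit and 0.0318 in the 12-library fit. With the GC correction its adjusted p was 0.0506 in the 6 and 0.0126 in the 12 libraries. The 12-library call for *Ccl1* was lost with DESeq2 size factors (adjusted p 0.057), without the WT pair of replicate 1 (log2 fold change -1.51, adjusted p 0.058) and without that of replicate 3 (adjusted p 0.124). *Ccl27a*, a skin chemokine, was called higher in CD8+ at 12.9, 21.3 and 12.6 CPM against 2.67, 0.526 and 1.66 CPM. *Ccl24* and *Ccl6*, which macrophages make, were called higher in CD4+, *Ccl24* at 7.25, 5.18 and 10.5 CPM against 64.2, 73.6 and 142 CPM, in the libraries with the higher macrophage sums. The inflammatory chemokine genes *Ccl3* and *Ccl4* overlapped between the groups, at 55.4 to 122 against 51.6 to 108 CPM and 189 to 428 against 145 to 255 CPM. Ligand calls were 0 higher and 1 lower without the WT pair of replicate 3, and without that of replicate 2 they were 0 and 3.

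Of 19 chemokine receptors, 0 were called higher in CD8+ and 4 were called higher in CD4+ (*Ccr4*, *Cxcr5*, *Ccr1*, *Ccr9*). *Ccr4*, which guides helper cells to skin, was at 1.03, 0.563 and 0.156 CPM in CD8+ and at 16.4, 10 and 8.41 CPM in CD4+. *Ccr9*, the small intestine homing receptor, was at 11.8, 1.75 and 5.31 CPM in CD8+ and at 44.5, 51.5 and 59.1 CPM in CD4+. Both were apart in all libraries, at log2 fold changes of -4.56 (SE 0.78, adjusted p 0.0162) and -3.41 (SE 0.77, adjusted p 0.0133). The 4 receptor calls became 6 without the WT pair of replicate 1, 4 without replicate 2 and 1 without replicate 3. *Cxcr3*, an inflammatory homing receptor, overlapped, at 119, 858 and 400 CPM against 370, 241 and 324 CPM. Of 28 adhesion and egress genes, *Ly6c2*, a surface marker of effector and memory CD8+ cells, was called higher in CD8+, at 753, 1210 and 934 CPM against 150, 139 and 143 CPM (log2 fold change 2.72, SE 0.57, adjusted p 0.00518). *Gpr15*, a gut homing receptor, *Itgb1* and *Gpr183* were called higher in CD4+. *Gpr15* was at 0, 0.113 and 1.76 CPM against 28, 12.7 and 20.7 CPM. It overlaps *Cpox* on the opposite strand, and the libraries do not mark strand. The adhesion list had 5 higher and 4 lower without the WT pair of replicate 1, 1 and 1 without replicate 2, and 0 and 1 without replicate 3.

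*Trbc2*, a constant region of the beta chain, was at 6140, 2380 and 3590 CPM in CD8+ and at 1460, 913 and 1340 CPM in CD4+ (log2 fold change 1.62, SE 0.55, adjusted p 0.0425), the only member of 34 genes of the receptor complex and its proximal signalling called in that direction. *Rasgrp1* and *Lcp2*, which act just after receptor triggering, were called higher in CD4+ at log2 fold changes of -2.55 and -1.56, and *Cd3e* overlapped at 219, 1260 and 624 CPM against 634, 409 and 575 CPM. The called shares over all genes were 2.41% and 5.84%, so the calls among these 34 genes are not read as a result about the list. The 21 beta variable segments summed to 1230, 527 and 758 CPM in CD8+ and 364, 221 and 334 CPM in CD4+. Of them, 5 were called higher in CD8+ and 0 higher in CD4+, and 11 and 0 with the GC correction. *Trbv29* was at 101, 24 and 51.9 CPM in CD8+ and at 1.91, 2.76 and 2.66 CPM in CD4+ (log2 fold change 4.37, SE 0.76, adjusted p 0.0161). *Trbv12-1* was at 71.5, 30.8 and 40.5 CPM in CD8+ and at 6.01, 2.48 and 5.57 CPM in CD4+ (log2 fold change 3.35, SE 0.59, adjusted p 0.0106). *Trbv17*, *Trbv12-2* and *Trbv13-3* were the others called. Without the WT pair of replicate 3 none was called.

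Segment use was compared as a share of all reads on beta variable segments, which does not depend on the scaling of the libraries. *Trbv29* took 8.22%, 4.56% and 6.84% of these reads in CD8+ and 0.524%, 1.25% and 0.797% in CD4+. *Trbv12-1* took 5.67% ± 0.286 (SD, n = 3) in CD8+ and 1.48% ± 0.31 in CD4+. These 2 were among 4 segments with a higher share in every CD8+ library. In the other direction 6 segments had a higher share in every CD4+ library, and 11 overlapped. *Trbv26* took 0.271%, 0.63% and 0.216% in CD8+ and 4.12%, 5.48% and 4.97% in CD4+. *Trbv31* took 1.33% ± 0.578 in CD8+ and 6.75% ± 0.847 in CD4+, and *Trbv23* took 0.246% ± 0.186 and 2.61% ± 0.519. *Trbv16* was the most used segment of both sorts by mean share, at 15% ± 4.95 and 11.7% ± 1.56. The shares were not tested and are given as a description. Segments of the *Trbv12* and *Trbv13* groups are similar in sequence and could share reads.

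**Figure D5:**
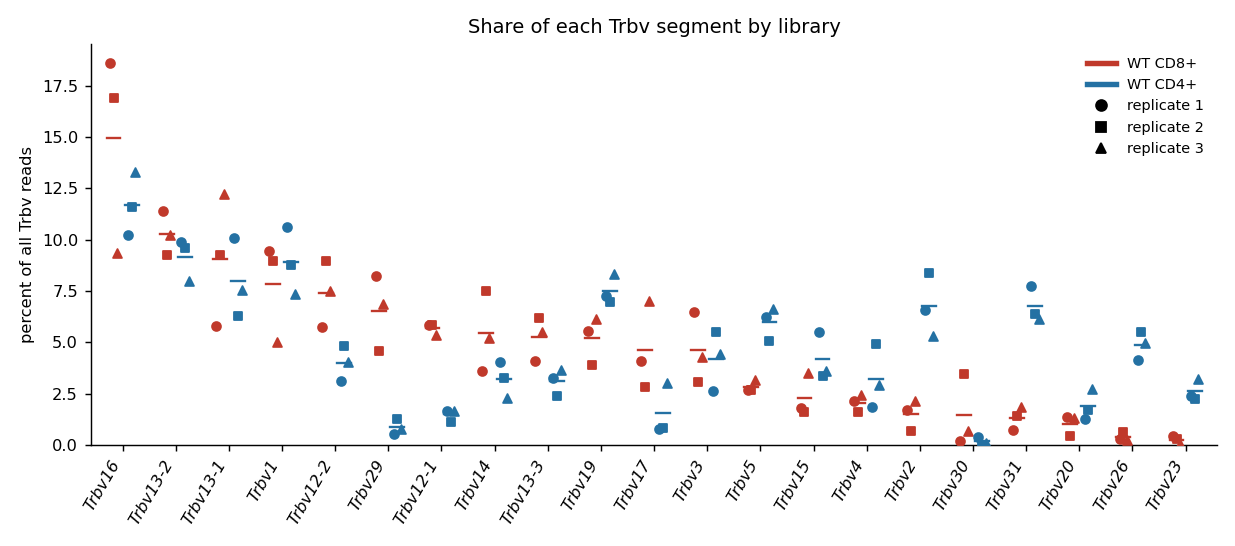
Share of all reads on beta variable segments in percent (y axis) for the 21 *Trbv* segments (x axis, ordered by the CD8+ mean) in each library, in red for WT CD8+ and blue for WT CD4+, with bars for group means. *Trbv29* lies at 4.56% to 8.22% against 0.524% to 1.25%, and *Trbv26* at 0.216% to 0.63% against 4.12% to 5.48%.

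Of 53 cell cycle genes, 2 were called higher in CD8+ (*Gins2*, *Tk1*) and 3 higher in CD4+ (*Ccnd1*, *Ccnd2*, *Cdk6*). Over all genes tested the shares were 2.41% and 5.84%, so these counts are not read as a result about the list. *Tk1*, the thymidine kinase of S phase, was at 186, 585 and 405 CPM in CD8+ and at 124, 70 and 77.5 CPM in CD4+ (log2 fold change 2.03, SE 0.69, adjusted p 0.0424). *Ccnd2*, a G1 cyclin, was at 101, 62.7 and 100 CPM in CD8+ and at 313, 202 and 335 CPM in CD4+ (log2 fold change -1.69, SE 0.53, adjusted p 0.0194). Each was apart in all libraries. The proliferation gene *Mki67* was at 176, 33.9 and 104 CPM in CD8+ and at 228, 157 and 185 CPM in CD4+, overlapping, with an adjusted p of 0.245, and *Top2a* at 186, 33.5 and 154 CPM against 184, 170 and 193 CPM. CD8+ replicate 2 was the lowest library for both. *Pcna*, the DNA polymerase clamp, was at 1250, 164 and 598 CPM in CD8+ and 199, 141 and 223 CPM in CD4+, not passing in the 12-library fit (adjusted p 0.162) and passing with the GC correction (adjusted p 0.0187). The count for this list was 10 higher and 2 lower in the GC-corrected fit, 14 higher and 3 lower in the 12-library fit without the WT pair of replicate 1, and 0 in both directions without replicate 3. Over all genes these fits called 5.75% higher and 5.67% lower, 1106 and 1141 of 14361, and 9 and 98 of 14361.

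Among 25 glycolysis genes, *Ldha* and *Eno3* were called higher in CD8+ and *Hif1a*, the hypoxia factor, higher in CD4+. *Ldha*, lactate dehydrogenase A, was at 8500, 6800 and 5490 CPM in CD8+ and at 2740, 1580 and 2090 CPM in CD4+ (log2 fold change 1.71, SE 0.55, adjusted p 0.031). *Eno3*, the muscle enolase, was at 68.9, 119 and 74.9 CPM in CD8+ and at 8.72, 2.96 and 5.4 CPM in CD4+ (log2 fold change 4.02, SE 0.71, adjusted p 0.00803). The median of the list was 0.06, against -0.20 over all genes, and without the WT pair of replicate 1 the calls were 10 higher and 3 lower. In lipid metabolism *Etfb*, an electron carrier of fatty acid oxidation, was called higher in CD8+ and the desaturase *Scd2* higher in CD4+, of 24 genes. Of 15 BCL2 family genes, the apoptosis effector *Bax* was called higher in CD8+ at 482, 452 and 388 CPM against 135, 111 and 142 CPM, and the survival gene *Bcl2* higher in CD4+ at 23.2, 7.94 and 22.1 CPM against 63.7, 71.1 and 88.1 CPM. *Bax* did not pass with the GC correction (adjusted p 0.203). The glycolysis, lipid and BCL2 lists each had 0 calls without the WT pair of replicate 3, and without that of replicate 2 so did the lipid and BCL2 lists. Over all genes tested the called shares were 2.41% and 5.84%, so the few calls in these lists are not read as results about the lists.

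Of 42 interferon-stimulated genes tested, 0 were called higher in CD8+ and 11 were called higher in CD4+, with a median of -1.45 and pair medians of -1.22, -1.46 and -1.14. *Oas2*, an antiviral RNA sensor, was at 0.0605, 0.732 and 0.156 CPM in CD8+ and at 8.51, 4.73 and 5.46 CPM in CD4+ (log2 fold change -4.68, SE 1.06, adjusted p 0.0112). *Gbp2*, a guanylate-binding protein induced by interferon γ, was at 47.5, 12.8 and 48.8 CPM in CD8+ and at 128, 124 and 181 CPM in CD4+ (log2 fold change -2.19, SE 0.63, adjusted p 0.0335). All CD4+ libraries were above all CD8+ libraries for these genes. *Irf7* overlapped, at 45.6, 284 and 166 CPM against 158, 102 and 146 CPM. The GC-corrected fit called 10 lower and 1 higher, *Psmb8*, a proteasome subunit. Without the WT pair of replicate 1 the 12-library fit called 19 lower and 2 higher, without replicate 2 it called 4 lower and without replicate 3 none. Of 21 JAK, STAT and SOCS genes, *Socs2* and *Stat2* were among those called higher in CD4+ and none was called higher in CD8+, and with the GC correction only *Stat2* was.

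The remaining genes of the naming rule were mostly of low level. Toward CD8+ they were *Wdr95* (59.7, 169 and 140 CPM against 4.4, 4.81 and 3.88 CPM), *Adgrg1*, an adhesion receptor found on cytotoxic lymphocytes (10.3, 48.5 and 29 CPM against 1.35, 0.0752 and 3.05 CPM), the tubulin gene *Tubb3* and the metallothionein gene *Mt3*, at log2 fold changes of 4.69, 4.47, 3.96 and 3.94. *Tubb3* overlaps *Gm20388* on the same strand, so its reads are uncertain. Toward CD4+ there were 3 genes at or under 3 counts in every CD8+ library. For these the CD4+ mean was set against the highest CD8+ floor. It was 77-fold above that floor for *Vdr*, the vitamin D receptor, and 69.8-fold for *Gcg*, proglucagon. For *Fpr1*, a receptor for formyl peptides on phagocytes, it was 66.4-fold above. These folds are of means, and a single library can lie lower. *Vdr* was at 16.8, 15.6 and 9.43 CPM in CD4+, *Gcg* at 19.2, 5.36 and 13.4 CPM and *Fpr1* at 12.1, 12.9 and 11 CPM. *Chil3*, a chitinase-like protein of macrophages, was at 2.54, 0.676 and 0.273 CPM in CD8+ and at 92.9, 64.6 and 91.7 CPM in CD4+, and *Prss34*, a protease of mast cells and basophils, at 1.03, 0.45 and 1.01 CPM and at 106, 17.5 and 72 CPM. *Adamdec1*, *Slco2b1*, *Ptgir*, the prostacyclin receptor, and *Gm14548* completed the set, with log2 fold changes between -6.88 and -6.38. Leaving the marker genes of other cells out of the 12-library fit, with 14288 genes tested, gave 1156 calls, of which 1155 were among the 1185. That step drops the marker genes only and leaves the reads of such cells on all other genes. It cannot show the part of these cells in the calls, which was not tested.

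The cell type difference of WT cells was set against that of Cat-Tg cells with an interaction term over the 12 libraries. In edgeR 0 of 14361 genes (0%) passed, the smallest adjusted p was 0.114 and 1293 genes had an unadjusted p under 0.05. Genes passing numbered 13 with no replicate block, 0 with limma-voom and 282 with DESeq2. In this fit the log2 fold change of CD8+ over CD4+ was 7.40 in WT and 8.19 in Cat-Tg for *Cd8a*, 2.54 and 2.98 for *Gzmb*, and -2.42 and -2.67 for *Ccl1*. It was -6.76 and -4.11 for *Cd40lg* and 0.73 and 2.50 for *Eomes*, with unadjusted interaction p of 0.0226 and 0.0167 and adjusted p of 0.483 and 0.456. For *Hist1h1b* it was 3.76 and 1.33 (interaction p 0.0233, adjusted p 0.485). The gap was wider for *Prss34*, at -6.21 and -1.79 (interaction p 5.23e-05, adjusted p 0.25). It was also wider for *Chil3*, at -6.75 and -1.62 (interaction p 0.00012, adjusted p 0.288). Neither *Prss34* nor *Chil3* was called between the cell types in Cat-Tg (adjusted p 0.0633 and 0.198). None of these differences between WT and Cat-Tg passed the test.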

How the data were processed

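RNA of sorted donor cells was made into cDNA with a poly(A)-primed SMART-Seq kit and Nextera XT libraries, which do not mark strand. The authors quantified transcripts with kallisto 0.46.2, and each deposited table holds estimated counts and TPM per transcript. The submitters' processing notes also name mm9 and limma, while 116428 of 117497 transcript identifiers matched GENCODE M21, and the index release is not given in the sources used here.

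Estimated counts, as deposited, were summed to 35907 genes and rounded. Genes over 1 CPM in at least 3 libraries were kept. WT CD8+ and CD4+ cells were compared with edgeR 4.0.16 (quasi-likelihood, robust, TMM, Benjamini-Hochberg adjustment) in R 4.3.3, with the mouse as a block. The comparison was repeated in limma-voom (limma 3.58.1) and DESeq2 1.42.0, and in edgeR with no block, all 12 post-tx libraries, other scalings and filters, counts from the authors' TPM, thinning, each pair left out, and a GC correction over 20 bins, chosen after seeing the data. The fits were tested on simulated data.

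Both cell types were sorted from each mouse, per the study's methods. That equal replicate numbers mark the same mouse was assumed, since the labels do not state it, and 869 genes were called with no block against 0 with it. Deviations of libraries with the same number correlated at -0.205, -0.02 and 0.216 across genes. Those of CD8+ and CD4+ libraries with different numbers correlated at -0.218 to 0.186, so same-numbered libraries were not consistently more alike. The replicates were 3 recipient mice. Floors of 3 counts cover counting error only.

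Named genes were *Cd8a*, *Cd8b1*, *Cd4*, *Zbtb7b*, *Eomes* and *Ccl1*, the 12 called protein-coding genes furthest toward CD8+ and the 12 furthest toward CD4+ by log2 fold change, of those without overlap and with a mean of at least 10 CPM in the higher group, and the called and defining members of each gene list. Because 0 genes were eligible in the 6-library fit, the rule was read on the 12-library fit, where 953 were. The members and lists were chosen with earlier results of these data known. Some list members are not reported here.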

Additional observations from a re-analysis of the deposited data

Results flagged for a closer look

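*Il2rg*, the receptor chain shared by interleukins 2, 7 and 15, was lower in CD8+ than in CD4+ cells in all 3 WT pairs and higher in all 3 Cat-Tg pairs. Its log2 differences were -2.41, -0.95 and -1.3 in the WT pairs and 0.8, 0.34 and 0.09 in the Cat-Tg pairs. The interaction term was -1.96 on the log2 scale, with an unadjusted p of 0.00714 and an adjusted p of 0.436 in edgeR, so the difference did not pass the correction. It was the only gene with opposite directions in every pair among the 111 named or listed genes called in the 12-library fit.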

How the results depend on the processing

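The paired fit of 6 libraries called 0 genes, and so did it with DESeq2 size factors, with counts from length-scaled TPM, without robust fitting and with a log2 difference of 2 or more required. The number was 869 with no replicate block, 6 with limma-voom, 1912 with DESeq2, 1001 with no filter, 133 with at least 10 counts in each library and 2 after thinning. Leaving out a pair gave 0 to 2269 genes, with 2269 without replicate 1, 0 without replicate 2 and 42 without replicate 3. With a GC correction and the replicate block it was 1517. All 12 post-tx libraries gave 1185 with the mouse block, 2288 without it (2269 of at least 2-fold), 1454 with limma-voom, 2857 with DESeq2, 1065 with DESeq2 size factors, 1156 without marker genes of other cells, 1220 after thinning and 2915 with the GC correction (2668 of at least 2-fold). Without WT replicate 1, 2 or 3 it was 2247, 757 and 107. For all other settings the number of called genes of at least 2-fold was the same. In the 12-library fit 346 genes were higher in CD8+ and 839 higher in CD4+, against 451 and 614 with DESeq2 size factors, which moved the median log2 fold change of all genes from -0.38 to -0.11. The interaction with Cat-Tg was called for 0 genes, for 13 with no replicate block, for 282 with DESeq2 and for 0 to 4 when a replicate was left out. List medians moved beyond the SD of the pairs in 37 planned and 37 added cases. None of *Cd8a*, *Cd8b1*, *Cd4*, *Zbtb7b*, *Eomes*, *Ccl1*, the 12 genes furthest in each direction and the 5 called *Trbv* segments changed direction under the settings run, and members of the other lists were not followed singly through all of them. The cause of these shifts was not tested. Genes near 3 counts in CD8+ libraries have fold changes that depend on depth.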
